A study of Mus musculus with 2 samples.

Results

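Cadherins and integrins, the main families of adhesion receptors, were followed in mouse embryonic fibroblasts, cultured mesenchymal cells of the embryo. The members were all genes of the deposited expression table whose symbol has the form Cdh with a number, Itga with a number or letter, or Itgb with a digit, 49 of 24015 genes. They comprised 23 cadherin genes, 18 integrin alpha genes and 8 integrin beta genes. RNA, labelled as total RNA, was sequenced from 1 library of cells with the genotype Adar2+/+ (labelled Adar2-WT) and 1 library of cells with the genotype Adar2-/- (labelled Adar2-KO), both cultured in DMEM with fetal bovine serum and antibiotics. The libraries were made with a TruSeq or a Nextera kit, and the labels do not say which kit served which library. Adar2, listed as Adarb1, encodes an enzyme that converts adenosine to inosine in double-stranded RNA. Strain, embryonic age, sex, passage, the deleted part of the gene and the number of embryos behind each culture are not given in the labels. With 1 library per genotype, no difference below has a replicate check, no p-value was computed across genes, and all intervals cover counting error only.

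Cadherins are transmembrane proteins that bind cadherins of neighbouring cells in the presence of calcium. The tails of the classical cadherins hold catenins, which connect them to actin. Integrins are pairs of an alpha and a beta subunit that bind the extracellular matrix or receptors of other cells, and their tails connect through talin and kindlins to actin at focal adhesions. Fibroblasts are known for N-cadherin, cadherin-11 and integrins that bind fibronectin and collagen, epithelia for E-cadherin, and white blood cells for the beta2 integrins.

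The transcript of the targeted gene did not mark the knockout. The library labelled WT held Adarb1 at 18.4 RPKM (1155 reads) and that labelled KO at 25.8 RPKM (1633 reads), so every direction below is that of the labels. RPKM is reads per kilobase of gene, scaled to the size of the library, and lets levels of different genes be set side by side. The values rested on 9446911 and 9546998 reads. The highest RPKM in the whole table were 107 and 124, which is 1.01 and 1.19 reads per base of gene. Differences between genes near these values may be compressed. Of 12 fibroblast and mesenchymal markers, 11 had at least 1 RPKM in each library, with a summed level of 501 RPKM in the library labelled WT and 491 RPKM in that labelled KO. The exception was Fap, at 0.822 and 0 RPKM. The near-equal sums held unequal genes: Thy1 was 7.68-fold higher in the library labelled KO (9.40 and 72.1 RPKM), Dcn was 2.42-fold lower (29.7 and 12.3 RPKM), and 8 of the 11 compared markers had the lower value there. In bulk RNA, fewer cells with a transcript and less transcript per cell cannot be told apart.

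The 2 libraries shared the same abundant cadherins and integrins and differed mainly in members of low level. The most abundant members lie near the top of the table, where differences may be compressed. Itga5, for example, stood at percentile 99.2 of all genes in the library labelled WT and 99.4 in that labelled KO. Of the 49 genes, 28 reached 1 RPKM in at least 1 library and were compared. On the scale of log2((KO + 1)/(WT + 1)), which understates the difference of low genes, 3 were at least 2-fold higher in the library labelled KO (Cdh3, Cdh23 and Itga2b) and 5 at least 2-fold lower (Cdh1, Cdh26, Itga2, Itga4 and Itga9). These are 10.7% and 17.9% of the compared members, against 4.42% and 7.46% of all 13867 genes compared. The median log2 ratio was -0.08 over the members and 0.01 over all genes. Members just past the 2-fold limit were Cdh26 (-1.02) and Itga2b (1.07), and just short of it were Itgb8 (-0.81) and Itgb3 (0.76).

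The large differences sat at low levels. Among the 16 members that reached 10 RPKM, 1 was 2-fold higher and 0 were 2-fold lower, where all genes of that level gave 2.22% and 4.19%. Among the 12 members whose larger value lay between 1 and 10 RPKM, 2 were 2-fold higher and 5 lower, where all genes of that level gave 11.0% and 17.2%. A member that enters at this level through 1 library has to differ if the other library is near 0. The summed levels of the families were nearly the same in the libraries labelled WT and KO, at 175 and 174 RPKM for cadherins, 226 and 222 RPKM for integrin alpha genes and 139 and 138 RPKM for integrin beta genes. All genes together summed to 317504 and 313911 RPKM, so near-equal sums are not particular to these families.

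**Figure D1:**
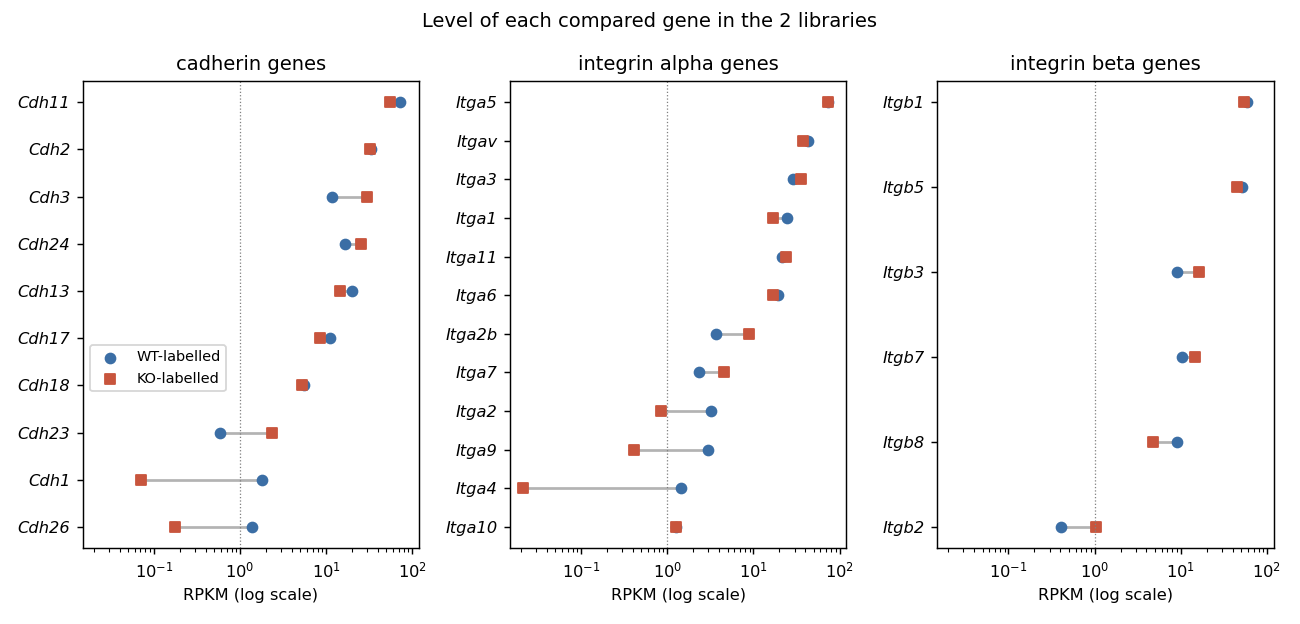
RPKM of the 28 compared genes on a log axis, with 1 point per library (circles, WT-labelled; squares, KO-labelled), a grey line joining the values of a gene, and a dotted line at 1 RPKM. The points of abundant genes such as Itga5 (72.6 and 73.9 RPKM) nearly coincide, and the long lines belong to genes such as Cdh1 and Itga4.

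Among type I classical cadherins, the mesenchymal N-cadherin gene was nearly equal in both libraries, P-cadherin was higher and E-cadherin lower in the library labelled KO. Cdh2, which encodes N-cadherin, stood at 33.2 RPKM (1459 reads) in the library labelled WT and 32.4 RPKM (1435 reads) in that labelled KO. The 95% counting interval of its log2 ratio of reads per total, -0.15 to 0.07, spans 0 and lies well within 2-fold. Cdh3, which encodes P-cadherin, a cadherin of basal epithelia and placenta, had 11.6 RPKM (444 reads) in the library labelled WT and 29.5 RPKM (1138 reads) in that labelled KO. It was the only member reaching 10 RPKM that passed 2-fold, 2.54-fold higher (interval of the log2 reads ratio 1.18 to 1.5), and moved from the 13th to the 8th highest member.

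Cdh1, which encodes E-cadherin of epithelial junctions, was low in both libraries. It had 1.80 RPKM (75 reads) in the library labelled WT and 0.0712 RPKM (3 reads) in that labelled KO, a log2 reads ratio of -4.66 (interval -6.97 to -3.06). The deposited GFOLD value, the authors' log2 fold change shrunken toward 0 where reads are few, was -2.62 for Cdh1 and 1.21 for Cdh3 in the authors' deposited table. Of 12 epithelial markers, Krt19 alone reached 1 RPKM in both libraries. The sum of all 12 was 61.4 RPKM in the library labelled WT and 21.1 RPKM in that labelled KO, nearly all of it from the keratin gene Krt19 (59.4 and 18.8 RPKM). The other keratins and claudins were low and went both ways. Cldn7 was lower in the library labelled KO (1.24 and 0.216 RPKM, 17 and 3 reads), while Krt8 (0.0586 and 1.04 RPKM, 1 and 18 reads) and Krt5 (0 and 7 reads) were higher there. The defining markers Epcam (0.103 and 0 RPKM) and Cldn3 (0 in both) were at or near 0, and the part of epithelial cells in the Cdh1 and Cdh3 values was not tested. The remaining type I genes were at the limit of detection, with 2 and 0 reads for the muscle cadherin gene Cdh15 and 1 and 0 reads for the R-cadherin gene Cdh4.

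Of 13 type II classical cadherin genes, Cdh11, Cdh24 and Cdh18 reached 1 RPKM, and Cdh11 and Cdh24 reached 20 RPKM in a library. Cdh11, which encodes the cadherin known from mesenchyme and bone-forming cells, had 72.8 RPKM (2900 reads) in the library labelled WT and 55.6 RPKM (2238 reads) in that labelled KO. It was the highest of all 49 members in the library labelled WT and the second highest in that labelled KO, 1.31-fold lower there (interval of the log2 reads ratio -0.47 to -0.31). Cdh24 went the other way, with 16.4 RPKM (423 reads) and 25.2 RPKM (657 reads), 1.54-fold higher (interval 0.44 to 0.80). Cdh18, best known from the nervous system, stood at 5.56 and 5.27 RPKM (interval -0.42 to 0.27). RefSeq lists Hnrnpa1l2-ps2 as overlapping Cdh18, and how the authors counted overlapping genes is not given in the sources used here.

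The other 10 type II genes had at most 0.159 RPKM in either library. Cdh7, Cdh8, Cdh9, Cdh19 and Cdh20, most of them known from brain and nerve, were listed at 0 in both. Cdh6 and Cdh12 were listed at 0 in the library labelled WT, with 1 and 2 reads in the library labelled KO. Cdh5, which encodes VE-cadherin of endothelial junctions, had 6 and 1 reads, Cdh22 had 3 and 1, and Cdh10 had 2 and 4. A count of 0 allows up to 3 reads, so none of these differences was detectable at this depth. Of 9 endothelial markers, Tie1, Cldn5, Emcn and Sox17 were listed at 0 in both libraries, and the sums of 27.4 and 8.10 RPKM came mostly from Erg (23.2 and 7.38 RPKM). Of the other endothelial markers, Tek, Kdr and Pecam1 were also lower in the library labelled KO. Tek had 106 and 6 reads (interval of the log2 reads ratio -5.64 to -2.99), Kdr had 50 and 8 reads (interval -3.95 to -1.57) and Pecam1 had 15 and 3 reads (interval -4.77 to -0.52). Esam, with 7 and 6 reads, had an interval that spans 0. The part of endothelial cells in the Cdh5 reads was not tested.

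Cadherins outside the classical types included both a shared and a differing part. Cdh13 encodes T-cadherin, which is held in the membrane by a lipid anchor and lacks the tail that binds catenins. It had 19.9 RPKM (431 reads) and 14.3 RPKM (313 reads) in the libraries labelled WT and KO (interval of the log2 reads ratio -0.69 to -0.26). Cdh17, the liver-intestine cadherin gene, had 11.0 and 8.41 RPKM (interval -0.62 to -0.15). Both were thus lower in the library labelled KO by more than counting error, but by less than 2-fold.

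Cdh23, which encodes the cadherin of the tip links of hair cells in the inner ear, had 0.583 RPKM (62 reads) in the library labelled WT and 2.34 RPKM (251 reads) in that labelled KO, 4.01-fold higher (interval 1.60 to 2.43). RefSeq lists Vsir and Gm17455 as overlapping Cdh23. Cdh26, described in human epithelia of allergic inflammation, had 1.38 RPKM (39 reads) and 0.176 RPKM (5 reads), 7.88-fold lower (interval -4.68 to -1.63). The kidney cadherin gene Cdh16 was listed at 0 in both libraries.

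**Figure D2:**
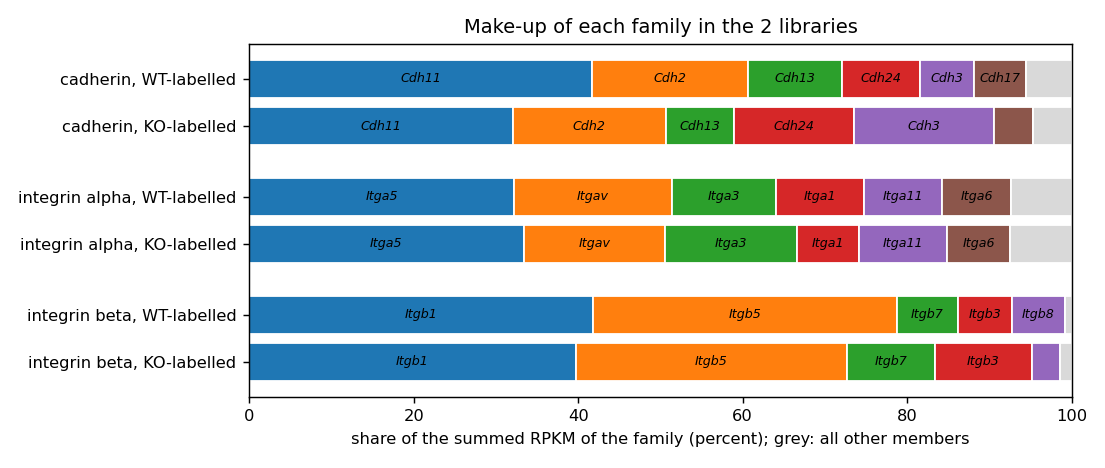
Share of each gene in the summed RPKM of its family, 1 bar per family and library, with genes under 5% in both libraries pooled in grey. Cdh11 filled 41.7% of the cadherin bar in the library labelled WT and 32.0% in that labelled KO, and Cdh3 6.66% and 17.0%.

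Shares within the family show the same shift on a scale that does not depend on the total of each library. Cdh11, Cdh2 and Cdh13 made up 41.7%, 19.0% and 11.4% of summed cadherin RPKM in the library labelled WT and 32.0%, 18.6% and 8.25% in that labelled KO. Cdh3 and Cdh24 made up 6.66% and 9.39% in the library labelled WT and 17.0% and 14.5% in that labelled KO. In the library labelled KO Cdh3 was thus close behind Cdh2 among cadherins. Cdh11 lies near the top of the table (percentile 99.2 in the library labelled WT), where differences may be compressed, so the shares may be affected too.

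Most catenins, which hold the cadherin tails, were within 2-fold, as most genes were. Of 7 catenin genes 5 were compared, with 0 at least 2-fold higher, 1 at least 2-fold lower and a median log2 ratio of -0.05. With 5 genes, these counts are near what the 4.42% and 7.46% of all genes give. Ctnnb1, which encodes beta-catenin, had 58.9 and 56.8 RPKM. The ends of the list among genes with at least 10 RPKM were the alpha-catenin gene Ctnna1 (43.6 and 40.4 RPKM) and the plakoglobin gene Jup (24.1 and 29.1 RPKM). Ctnnd2, which encodes the delta-catenin known mainly from neurons, had 6.89 RPKM (387 reads) and 1.90 RPKM (108 reads), with an interval of the log2 reads ratio of -2.18 to -1.55.

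Transcription factors of the epithelial-mesenchymal transition, among them the Snai, Zeb and Twist genes, were abundant in both libraries and slightly lower in the library labelled KO. Of 7 genes 6 were compared and all 6 had the lower value there, with 0 past 2-fold and a median log2 ratio of -0.33. Over all 13867 compared genes, 6826 had a log2 ratio below 0. The ends were Twist2 (53.8 and 31.9 RPKM) and Zeb1 (39.9 and 34.7 RPKM).

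Integrin alpha subunits that bind the RGD sequence of fibronectin and vitronectin dominated the alpha genes, and their main members differed little. Itga5, which encodes the alpha subunit of the fibronectin receptor, had 72.6 RPKM (2996 reads) in the library labelled WT and 73.9 RPKM (3081 reads) in that labelled KO. The interval of its log2 reads ratio, -0.05 to 0.10, spans 0, and it was the highest of all 49 members in the library labelled KO. Itgav, which encodes the alpha subunit of the vitronectin receptors, had 43.5 RPKM (2900 reads) and 38.1 RPKM (2566 reads), 1.14-fold lower (interval -0.27 to -0.11). Itga5 and Itgav together gave over 50% of summed alpha RPKM in each library, at 32.2% and 19.3% in the library labelled WT and 33.4% and 17.2% in that labelled KO.

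The low members of the RGD class diverged. Itga2b, which encodes the alpha subunit of the platelet fibrinogen receptor, had 3.70 RPKM (120 reads) and 8.87 RPKM (291 reads), 2.4-fold higher in the library labelled KO (interval 0.95 to 1.58). Its GFOLD value in the authors' deposited table was 0.953, just under 1. Itga8, known from mesenchyme of the developing kidney, stood just below the limit of 1 RPKM, at 0.915 RPKM (50 reads) and 0.380 RPKM (21 reads, interval -2.08 to -0.50).

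Laminin-binding alpha subunits were all expressed and none of the 3 passed 2-fold, as most genes did not (4.42% higher and 7.46% lower over all genes). Itga3 had 28.4 RPKM (1304 reads) in the library labelled WT and 35.5 RPKM (1646 reads) in that labelled KO (interval 0.22 to 0.43). Itga6, which also pairs with Itgb4 in epithelial hemidesmosomes, had 19.1 and 16.9 RPKM (interval -0.30 to -0.05). Itga7, the subunit best known from muscle, had 2.34 RPKM (89 reads) and 4.51 RPKM (173 reads), 1.92-fold higher (interval 0.57 to 1.33), and RefSeq lists Mettl7b as overlapping it. The class thus held 2 genes higher and 1 gene lower in the library labelled KO.

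Collagen-binding alpha subunits differed in size and direction. Itga1, the receptor subunit for collagen IV and other collagens, had 24.2 RPKM (1370 reads) in the library labelled WT and 16.7 RPKM (955 reads) in that labelled KO, 1.45-fold lower (interval -0.66 to -0.42). RefSeq lists Pelo as overlapping Itga1. Itga11, the fibroblast subunit for fibrillar collagen, had 21.2 RPKM (990 reads) and 23.6 RPKM (1114 reads; interval 0.03 to 0.28). Itga2, the platelet and epithelial collagen receptor subunit, had 3.24 RPKM (129 reads) and 0.844 RPKM (34 reads), 3.83-fold lower (interval -2.53 to -1.38). The cartilage subunit gene Itga10 stood at 1.26 and 1.25 RPKM, with the same number of reads in both libraries.

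Itga4 and Itga9 form a class of their own among alpha subunits, binding VCAM-1, an alternatively spliced stretch of fibronectin, osteopontin and tenascin-C. Both were low in the library labelled WT and lower in that labelled KO. Itga4, known from white blood cells, neural crest and heart, had 1.45 RPKM (135 reads) in the library labelled WT and 0.0213 RPKM (2 reads) in that labelled KO. Its log2 reads ratio of -6.09 (interval -9.15 to -4.21) was the largest in size among the members with reads in both libraries. RefSeq lists Cerkl as overlapping Itga4. Itga9 had 3.0 RPKM (201 reads) and 0.414 RPKM (28 reads), 7.25-fold lower (interval -3.48 to -2.28). Of 9 leukocyte markers in the table, 4 had at least 1 RPKM in the library labelled WT and 3 in that labelled KO, with sums of 15.1 and 14.0 RPKM. Those near-equal sums held differences in both directions. Csf1r, which encodes the receptor for a macrophage growth factor, was lower in the library labelled KO as Itga4 was (1.75 and 0.0811 RPKM, 64 and 3 reads), Lyz2 was lower (5.91 and 3.67 RPKM) and Cd68 was higher (5.15 and 7.40 RPKM). The defining marker Ptprc stood at 0.0747 and 0 RPKM, and Tyrobp and Emr1 were listed at 0 in both. The part of leukocytes in the Itga4 and Itga9 values was not tested.

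Upstream sequence is shown for Itga2 and Itga4, which with Itga9 are the 3 alpha genes at least 2-fold lower. RefSeq promoter windows were found for 31 of the 49 members. The 250 bases before the start are printed 5′ to 3′ on the gene's strand, in build GRCm38.p6, for Itga2 (chr13:114932101-114932350, minus strand) and Itga4 (chr2:79255176-79255425, plus strand). The window given for Itga9 lies inside the gene rather than at its outer end and is not shown. Capitals mark matches to the GC box GGGCGG, searched on both strands.
Itga2: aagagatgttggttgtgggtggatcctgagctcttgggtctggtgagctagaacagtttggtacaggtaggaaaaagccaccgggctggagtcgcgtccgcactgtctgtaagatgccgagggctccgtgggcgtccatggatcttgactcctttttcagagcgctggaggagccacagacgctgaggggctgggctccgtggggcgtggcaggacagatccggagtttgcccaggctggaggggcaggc
Itga4: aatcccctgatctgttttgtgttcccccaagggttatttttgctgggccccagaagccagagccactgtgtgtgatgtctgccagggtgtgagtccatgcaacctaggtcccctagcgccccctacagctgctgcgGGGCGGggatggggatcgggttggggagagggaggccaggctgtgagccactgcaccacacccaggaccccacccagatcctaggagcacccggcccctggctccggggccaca
Itga4 held 1 GC box match and Itga2 held 0, where 32.7% of the 32817 promoter windows of that length in the table held at least 1. The printed windows were 60.8% (Itga2) and 64% (Itga4) G and C, against a median of 52.4% over all windows. The E box CAGGTG, the motif of the Snai and Zeb factors, searched on both strands, was in neither printed window and in 17.2% of all windows. It had 2 matches in the unprinted Itga9 window, which lies inside the gene and is not set against that share. A match is a description of these letters, not of binding.

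The integrin alpha genes of white blood cells were near 0 in both libraries. Itgal, Itgam, Itgax, Itgad and Itgae had at most 0.301 RPKM, and Itgax was listed at 0 in the library labelled KO against 4 reads in the library labelled WT. Itgam had 6 and 1 reads and Itgad 5 and 2, differences within counting error. Itgae (0.301 and 0.298 RPKM) and Itgal (0.0203 and 0.020 RPKM) had the same number of reads in both libraries.

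Among integrin beta genes the abundant subunits were shared, and of the 6 compared none passed 2-fold on the scale used. With 6 genes, that is near what the 4.42% and 7.46% of all genes give. Itgb1, which encodes the common partner of most alpha subunits, had 58.3 RPKM (2310 reads) in the library labelled WT and 54.6 RPKM (2187 reads) in that labelled KO (interval -0.18 to -0.01). Itgb5, a partner of Itgav, had 51.4 RPKM (1594 reads) and 45.4 RPKM (1422 reads; interval -0.28 to -0.08). These were the third and the fourth highest of all 49 members in both libraries.

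The other beta partners of Itgav went in opposite directions. Itgb3, which pairs with Itgav and with Itga2b, had 9.14 RPKM (499 reads) and 16.1 RPKM (891 reads), 1.77-fold higher in the library labelled KO (interval 0.66 to 0.98). Itgb8, a subunit known for activating TGF-beta together with Itgav, had 9.03 RPKM (264 reads) and 4.74 RPKM (140 reads), 1.91-fold lower (interval -1.24 to -0.63). Itgb6, the epithelial partner of Itgav, had 6 and 3 reads. Itgb3 and its partner Itga2b were thus both higher in the library labelled KO.

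Beta subunits of white blood cells were not all near 0. Itgb7, the partner of Itga4 and Itgae in lymphocytes, had 10.3 RPKM (260 reads) and 14.7 RPKM (375 reads; interval 0.28 to 0.75), far above either partner in each library. Itgb2, the common partner of the beta2 integrins, had 0.407 RPKM (11 reads) and 1.02 RPKM (28 reads; interval 0.28 to 2.49). It was 2.52-fold higher as a ratio of RPKM but within 2-fold once 1 RPKM is added to each value. The hemidesmosome subunit gene Itgb4 stood below 1 RPKM, at 0.635 and 0.900 RPKM (37 and 53 reads).

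Of 24 integrin pairs known from protein work, 16 had both subunits at 1 RPKM or more in the library labelled WT and 12 in that labelled KO. All 12 were among the 16. The 4 pairs that met the limit in the library labelled WT alone were those of Itga2, Itga4 and Itga9 with Itgb1 and of Itga4 with Itgb7. They restate the lower values of these 3 alpha genes. Over all 13867 compared genes, 13320 reached 1 RPKM in the library labelled WT and 13104 in that labelled KO. Of the 12 pairs with Itgb1, 11 met the limit in the library labelled WT and 8 in that labelled KO, and of the 5 pairs with Itgav, 4 met it in each. Itga2 (0.844 RPKM) missed the limit narrowly in the library labelled KO. The counts describe RNA of the subunits, not receptors at the surface.

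**Figure D3:**
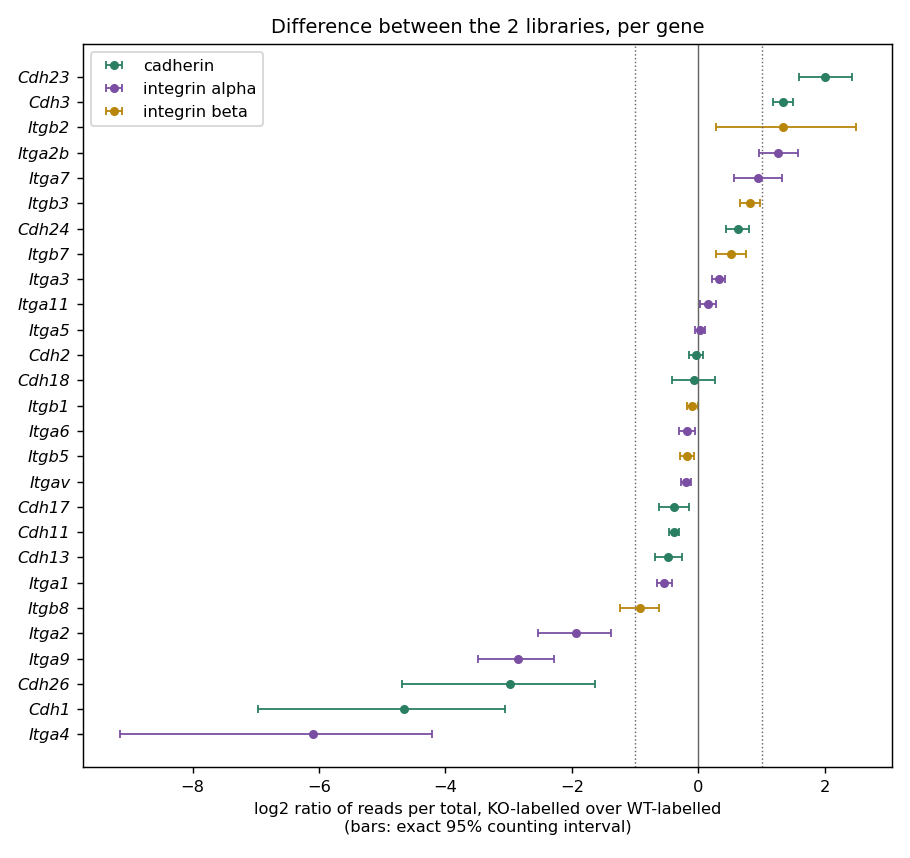
Log2 ratio of reads per total, KO-labelled over WT-labelled, for the 27 compared genes whose whole reads could be recovered, with exact 95% counting intervals and dotted lines at 2-fold. Itga4 (-6.09) and Cdh1 (-4.66) lie at the lower end with wide intervals, and Cdh23 (2.0) and Cdh3 (1.34) at the upper end.

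Set against counting error alone, most members differed. The interval lay above 0 for 10 and below 0 for 14 of the 27 compared members with recovered reads (37.0% and 51.9%), and spanned 0 for Cdh2, Cdh18 and Itga5. Over all 13424 such genes it lay above 0 for 28.0% and below 0 for 27.4%. An interval that leaves out 0 says that the 2 libraries differ by more than the sampling of reads, and the spread between cultures is not known. The members with most reads have the narrowest intervals, so small differences such as that of Itgb1 leave out 0.

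Most adaptors that connect integrins to actin were within 2-fold, as most genes were. Of 29 listed genes 28 were in the table and 26 were compared, with 1 at least 2-fold higher, 1 at least 2-fold lower and a median log2 ratio of 0.01. Each is 3.85% of the 26, beside 4.42% and 7.46% of all genes. Of the 28 adaptors, 24 reached 20 RPKM in a library, and all genes reaching 10 RPKM gave 2.22% and 4.19%. Talin (Tln1, 58.4 and 56.6 RPKM) and the kindlin-2 gene Fermt2 (67.1 and 66.3 RPKM), which encode activators that bind the beta tail, nearly coincided. Fermt3, the kindlin of blood cells and platelets, had 0.655 RPKM (16 reads) and 2.59 RPKM (64 reads), higher in the library labelled KO as Itga2b was. Lims2, which encodes the adaptor PINCH-2, had 21.3 and 8.44 RPKM, lower by more than 2-fold, and Parvb, which encodes beta-parvin, had 14.9 and 26.4 RPKM.

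Extracellular ligands of integrins included genes with large differences toward lower values in the library labelled KO. Of 28 listed genes 27 were in the table and 19 were compared, with 0 at least 2-fold higher, 3 at least 2-fold lower and a median log2 ratio of -0.33. The ratio was below 0 for 12 of the 19, against 6826 of all 13867 compared genes, and 4.42% and 7.46% of all genes were 2-fold higher and lower. Lama2, the laminin chain of muscle basement membranes, had 10.3 RPKM (946 reads) in the library labelled WT and 0.140 RPKM (13 reads) in that labelled KO (interval -7.12 to -5.42). Npnt, which encodes nephronectin, a ligand of Itga8, had 56.3 and 26.9 RPKM, and the epithelial laminin gene Lamb3 had 2.47 and 0.553 RPKM. Postn, which encodes periostin, was the highest in ratio, at 21.9 and 41.2 RPKM.

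Ligands of Itga4 and Itga9 ranged from abundant to nearly absent. Madcam1, whose product binds the pair of Itga4 and Itgb7, had 1.12 RPKM (15 reads) in the library labelled WT and 0.0738 RPKM (1 read) in that labelled KO (interval -9.32 to -1.22). Vcam1 stood at 54.7 and 42.4 RPKM, the osteopontin gene Spp1 at 76.7 and 68.4 RPKM and the tenascin-C gene Tnc at 69.8 and 40.5 RPKM. The fibronectin gene Fn1, whose product binds the Itga5 receptor, had 96.2 and 97.9 RPKM, near the highest values of the table. These ligands were all lower in the library labelled KO apart from Fn1.

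**Figure D4:**
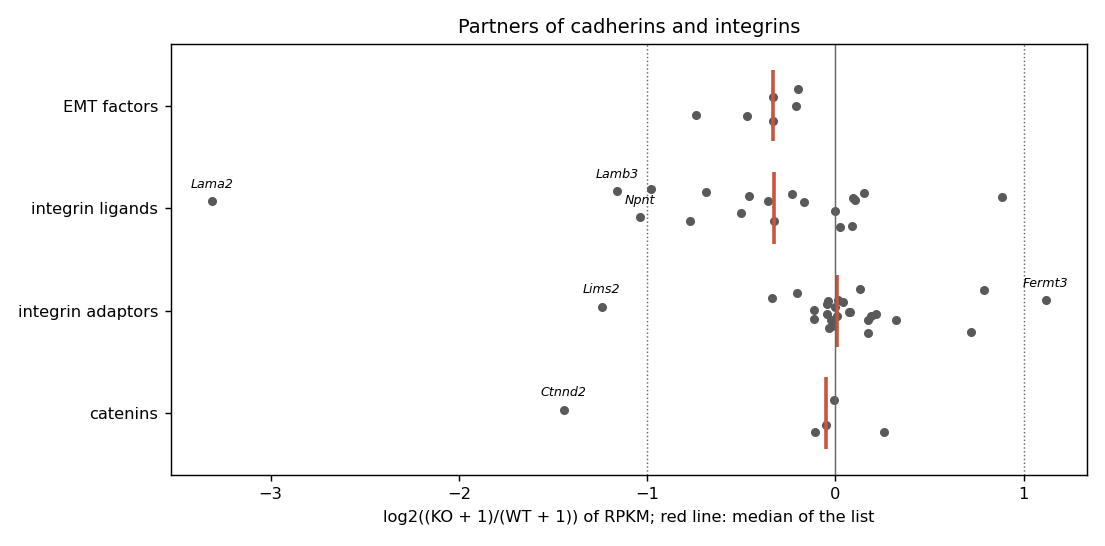
Log2((KO + 1)/(WT + 1)) of RPKM for the compared genes of 4 lists of partners, 1 point per gene, with the median of each list as a red line and names at genes at least 2-fold apart. Ctnnd2, Lims2 and Fermt3 are the catenins and adaptors past 2-fold, and all 6 transcription factors of the epithelial-mesenchymal transition lie below 0.

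No edited site was listed in any of the 49 genes. The lists of edited sites held 654 sites in the library labelled WT and 110 in that labelled KO, with a median depth of 15 and 14 reads. These sites are few beside the 24015 genes of the expression table, so their absence from 49 genes is not read as a trait of these families. The share of all genes with a listed site was not counted. Each site in the lists carried 2 or more mismatch reads, and the absence of a gene from the lists does not show that its transcript is unedited.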

How the data were processed

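Per the labels, 1 library of each genotype was sequenced. Per the submitters' processing notes, STAR 2.4.0d, SAMtools and the mm9 genome were used. Neither the gene models, nor how reads were counted, nor strand or duplicate handling is given in the sources used here. The deposited table, in the layout of GFOLD per the file headers, holds RPKM, a log2 fold change and the GFOLD value. The FDR that the authors deposited beside them equals 1 throughout and was left aside. The deposited lists of edited sites hold counts of reads and of mismatches, and the editing level as a fraction.

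Total reads were recovered from the authors' log2 fold change of genes at 0 in 1 library, which is that of reads plus 1, and whole reads then followed from the printed digits. A single pair of whole numbers fitted 17182 of 17981 genes above 0 (95.6%). The recovery was tested on simulated data with shorter genes and a narrower search of lengths. That setting is easier than the real data, so it does not give the error rate for the longest genes. Reads gave exact 95% Clopper-Pearson intervals, conditional on the sum, for counting error only. Reads carry no molecular identifiers and are not independent molecules.

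Log2 ratios used RPKM plus 1, for genes whose larger value reached 1 RPKM. No test was run: there is 1 library per genotype, and the planned Fisher's exact test had no site to test. Named are all members compared, with reads for those 2-fold apart or at 20 RPKM or more, members listed at 0, and of each partner list the genes 2-fold apart and its ends at 10 RPKM or more; Ctnnb1, Tln1, Fermt2, Madcam1, Vcam1, Spp1, Tnc, Fn1 and the marker genes named were chosen after their values were seen, and reads are given for further members. The members, lists and rules were chosen with earlier results of these data known. Neighbours, overlaps and promoters come from RefSeq GRCm38.p6, and none of its coordinates were set against mm9. Markers of skeletal muscle precursors (sums of 1.5 and 0.658 RPKM), cartilage (68.5 and 18.0), smooth muscle (193 and 214) and Schwann cells (11.6 and 4.34) were also summed, the WT-labelled library first. Python 3.11.15, pandas 2.3.3, scipy 1.17.1 and matplotlib 3.10.9 were used.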

Additional observations from a re-analysis of the deposited data

How the results depend on the processing

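The 3 members at least 2-fold higher and the 5 at least 2-fold lower were counted again under other settings. Both counts stayed within 1.5 times with a pseudocount of 0.1 RPKM and after centring on genes with at least 10 RPKM. They also did with the GFOLD value of the authors' deposited table. The same held with recovered reads and no pseudocount, a setting chosen after seeing the data. Dropping the filter could not change the counts, because values under 1 RPKM cannot be 2-fold apart once 1 RPKM is added. Itgb2 passed 2-fold with a pseudocount of 0.1 RPKM (1.15) and with recovered reads (1.33), and Itga2b did not with the GFOLD value (0.953). With a pseudocount of 5 RPKM, 1 member was 2-fold higher (Cdh3) and 0 lower, and so it was among members with at least 10 RPKM; both settings set low members aside. No ratio of a member past 2-fold changed sign under the alternatives tried. The median log2 ratio ranged from -0.09 to 0. No paired analysis was possible because there is 1 library per genotype, and for the same reason no library could be left out. Depth limits the members under 1 RPKM, where 0 reads allow up to 3.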

Other observations

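Several members are neighbours in RefSeq with no other protein-coding gene starting between them, and neighbours did not always move together. Cdh3 and Cdh1, side by side on chromosome 8, went in opposite directions, with log2 reads ratios of 1.34 and -4.66. Itga2 and Itga1, side by side on chromosome 13, were both lower in the library labelled KO, with log2 reads ratios of -1.94 and -0.54. On chromosome 8, Cdh11 (72.8 and 55.6 RPKM) lies between Cdh8, listed at 0 in both libraries, and Cdh5 (0.159 and 0.0263 RPKM). On chromosome 15, Cdh6, Cdh9, Cdh10 and Cdh12 were at most at 0.123 RPKM, while the next member, Cdh18, stood above 5 RPKM in both libraries. The start of Acot10 lies between those of Cdh12 and Cdh18, and RefSeq lists Acot10 as overlapping Cdh12. Itgam, Itgax and Itgad, in a row on chromosome 7, were all under 1 RPKM.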
